A study of Homo sapiens with 6 samples.

Results

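The 10 genes described here are noncoding host transcripts of small nucleolar RNAs (snoRNAs): GAS5, SNHG1, SNHG5, SNHG6, SNHG7, SNHG8, SNHG12, SNHG15, ZFAS1 and EPB41L4A-AS1. They were chosen by name with earlier results of these data known, so counts over the 10 are descriptions only. Matched through their Ensembl gene IDs to GENCODE release 29 (GRCh38), all 10 were found among the 58676 genes of the deposited table. All 10 passed the filter on low values (0.5 RPKM or more in at least 3 libraries), which left 15408 genes for testing. RPKM is a read count scaled by the exon length of the gene and by the reads of the library.

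The study sequenced total RNA from cells whose labels say HCC (hepatocellular carcinoma) cell line, in 3 knockdown libraries, whose titles name a sponge, and 3 control libraries, whose titles give the number 238, which the labels used here do not explain. A microRNA sponge is a transcript with binding sites that take up a microRNA, and the series title speaks of cells treated with miR-19a while the sample labels say knockdown. All cells were grown in DMEM with serum, and the labels used here do not name the cell line, the sponge vector, the time or what the control cells carried. No label says whether replicates are separate cultures, so the p-values rest on a spread that may be technical. Knockdown replicate 2 was left out because its values did not follow the gene IDs: its rank correlation with each other library was 0.0173 to 0.0191, against 0.822 to 0.887 between the other 5.

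A snoRNA guides chemical modification of ribosomal RNA: box C/D snoRNAs direct methylation of the ribose, and box H/ACA snoRNAs direct pseudouridylation. Many are cut from the introns of a host transcript, whose spliced exons may have no coding role. Several of these hosts begin with a terminal oligopyrimidine (TOP) tract, as ribosomal protein mRNAs do, and the spliced GAS5 and ZFAS1 RNAs are known substrates of nonsense-mediated decay, so growth state and translation are known to shape their levels. For that reason the ribosomal protein genes serve as the comparison here.

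The starts of the hosts are shown because a TOP tract lies at the first base of an RNA. A start was counted when an annotated transcript began with C followed by at least 4 bases that were each C or T. By this measure 7 of the 10 hosts (70%) had at least 1 such transcript, as did 66 of 80 ribosomal protein genes (82.5%). So did 7 of 14 other snoRNA hosts listed as noncoding (50%), 104 of 1635 noncoding genes tested (6.36%) and 2242 of all 15408 genes tested (14.6%). The 10 hosts have more annotated transcripts than most genes, with a median of 10 per host against 6 over all genes. Counted over transcripts, 21 of 132 host transcripts (15.9%) began this way, against 20.4% of ribosomal protein transcripts and 2.63% of all transcripts. The bases below are the first 30 of an annotated GENCODE transcript, 5′ to 3′, with the tract in capitals.
GAS5: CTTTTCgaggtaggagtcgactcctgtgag
SNHG5: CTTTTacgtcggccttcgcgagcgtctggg
SNHG8: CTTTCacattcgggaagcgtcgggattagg
ZFAS1: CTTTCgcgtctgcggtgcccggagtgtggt
SNHG12: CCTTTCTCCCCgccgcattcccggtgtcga
SNHG7: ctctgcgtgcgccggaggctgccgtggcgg
SNHG15: ccgccatcctgggccccacgtgttgcctga
EPB41L4A-AS1: tgtcgggtcccaaaatacgtggtctaaagt
These lie at chr1:173867960-173867989 (GAS5, minus strand), chr6:85678704-85678733 (SNHG5, minus strand), chr4:118278758-118278787 (SNHG8, plus strand), chr20:49278642-49278671 (ZFAS1, plus strand) and chr1:28581844-28581873 (SNHG12, minus strand). The 3 starts with no counted tract lie at chr9:136728155-136728184 (SNHG7, minus strand), chr7:44986541-44986570 (SNHG15, minus strand) and chr5:112160526-112160555 (EPB41L4A-AS1, plus strand). A tract was present in 6 of 29 annotated GAS5 transcripts, 3 of 23 of SNHG5, 3 of 5 of SNHG6, 3 of 10 of ZFAS1, 4 of 17 of SNHG12, 1 of 5 of SNHG8 and 1 of 25 of SNHG1. SNHG7, SNHG15 and EPB41L4A-AS1 had 0, and the SNHG7 start shown is short of the measure by 1 base. Annotated starts are a description of the gene models, and the starts used in these cells were not measured.

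The microRNA named in the title has a mature strand with the following sequence in RefSeq (GRCh38.p14, chr13:91350939-91350961, plus strand), with its seed, bases 2 to 8, in capitals.
hsa-miR-19a-3p: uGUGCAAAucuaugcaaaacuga
The match to that seed, TTTGCAC on the transcript strand, was found in 0 of the 10 hosts, counted over their 132 annotated transcripts. The full match was found in at least 1 transcript of 147 of 1635 noncoding genes tested (8.99%) and of 3689 of all 15408 genes tested (23.9%). Shorter matches of 6 bases were present: TTTGCA, which pairs with bases 3 to 8, was in 39 of the 132 host transcripts (29.5%), against 28.6% of noncoding and 34.8% of all transcripts tested. It was in 14 of 29 transcripts of GAS5, 10 of 25 of SNHG1 and 8 of 10 of SNHG15. By gene, 7 of the 10 hosts (70%) held TTTGCA, against 39.3% of noncoding and 64.9% of all genes tested. TTGCAC, which pairs with bases 2 to 7, was in 8 of the 132 (6.06%), against 16.8% of noncoding and 22.8% of all transcripts. By gene, TTGCAC was in 4 of the 10 hosts (40%), against 27.7% of noncoding and 50.5% of all genes tested. A match or its absence describes the letters of the annotated transcripts only.

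Reads assigned to genes came to 9296308 and 15198231 in knockdown replicates 1 and 3, and to 9181567, 1948940 and 19605312 in control replicates 1, 2 and 3. Control replicate 2 is the shallowest library and control replicate 3 the deepest. The share of reads from mitochondrial genes was 8.30% and 7.83% in knockdown, against 7.40%, 10.4% and 4.94% in control. The summed level of 10 hepatocyte markers, among them ALB and AFP, was 1728 to 1824 RPKM in knockdown and 1539 to 1922 RPKM in control, and 0 of the 10 were at 0 in all libraries. At an unadjusted p under 0.05, SERPINA1, TF and APOC3 were higher in knockdown and APOB lower, with 0 of the markers called by limma after adjustment. Summed levels of markers of other cells overlapped between the groups for blood and immune cells (5 genes, 36.8 to 42.9 RPKM in knockdown, 32.7 to 41.9 RPKM in control) and fibroblasts (6 genes, 68.2 to 72.1 RPKM in knockdown, 63.2 to 83.2 RPKM in control). Endothelial markers (4 genes) were at 0.388 to 0.406 RPKM in knockdown and 0.523 to 0.760 RPKM in control, which did not overlap, and their part in the results was not tested. CD14 and LUM carry most of the blood and fibroblast sums, and other members differed more: CD3D was at 6.14 and 6.09 RPKM in knockdown against 4.46, 3.87 and 3.07 RPKM in control. Both knockdown libraries exceeded every control for COL1A1 and COL1A2 too, as for 14.3% of all genes. They were under every control for PDGFRA and PECAM1, as for 13.6% of all genes. HBB of the blood list and KDR of the endothelial list were at 0 in all 5 libraries.

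Of the 10 host transcripts, 7 had a log2 difference above 0 and 3 below, with a median of 0.47, beside 7701 of all 15408 genes above 0 (49.98%) and a median of -0.0002. SNHG7, SNHG5, EPB41L4A-AS1 and SNHG6 differed most, by 0.63 to 0.75, ZFAS1, SNHG8 and GAS5 by 0.37 to 0.47, SNHG12 and SNHG1 by -0.01 and -0.02, and SNHG15 by -0.38. None passed the test: limma called 0 of the 10 at a Benjamini-Hochberg adjusted p under 0.05, as it called 0% of all genes higher and 0% lower, and the hosts' adjusted p ran from 0.71 to 0.99. voom on recovered reads also called 0. At an unadjusted p under 0.05, 2 of the 10 (SNHG7 and EPB41L4A-AS1) were higher, beside 3.8% of all genes, and 0 lower, beside 2.54%. In 5 of the 10 (GAS5, SNHG5, SNHG6, SNHG7 and EPB41L4A-AS1) both knockdown libraries lay above all 3 controls, which held for 14.3% of all genes tested. In 0 of the 10 both lay below all controls, which held for 13.6%. Differences are on the log2(RPKM + 0.5) scale, which understates changes of low genes, and in bulk RNA fewer cells with a transcript cannot be told apart from less of it per cell.

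**Figure D1:**
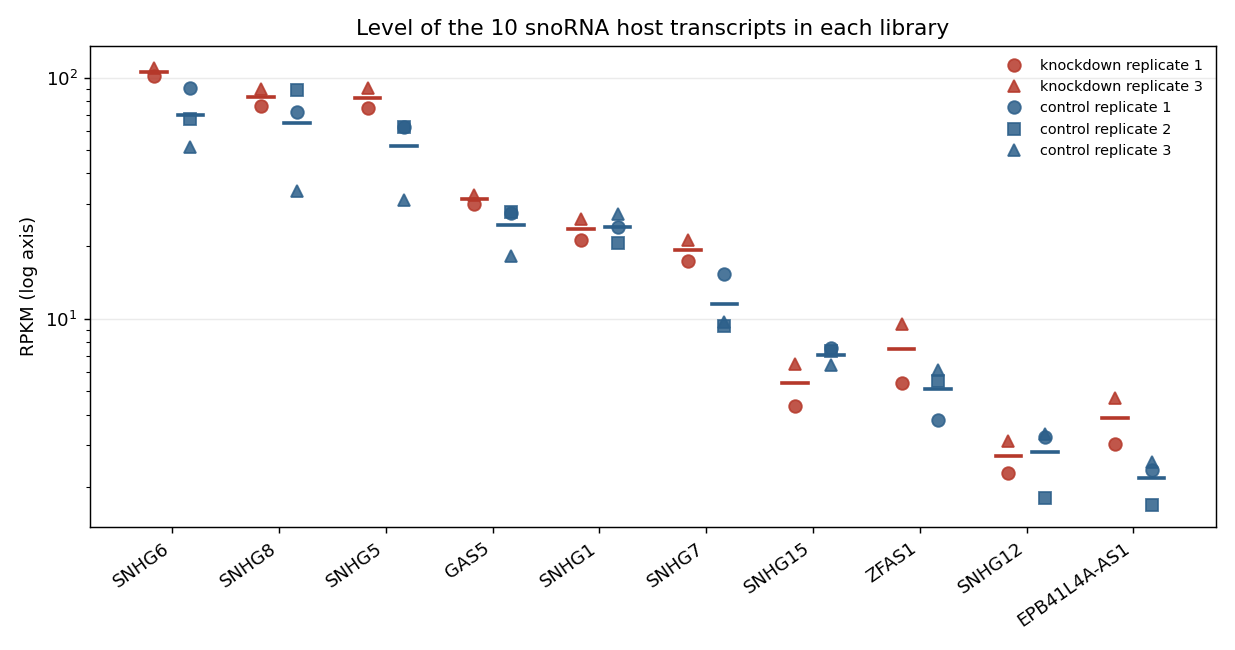
RPKM (log axis) of the 10 host transcripts in each library, knockdown left and control right, with a bar at each group mean. SNHG5, SNHG6, SNHG7, GAS5 and EPB41L4A-AS1 show both knockdown libraries above all 3 controls, and control replicate 3 lies well below the other controls for SNHG5, SNHG8 and GAS5.

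Among the hosts of box C/D snoRNAs, SNHG5 (ENSG00000203875, chromosome 6 from 85660950 to 85678748, minus strand), which hosts the SNORD50 snoRNAs and has a TOP tract in the annotation, was at 74.8 and 90.6 RPKM in knockdown replicates 1 and 3 and at 62.3, 62.2 and 31.03 RPKM in control replicates 1, 2 and 3. The groups did not overlap, but control replicate 3 stood 2.01-fold below control replicate 1, a wider gap than the 1.59-fold ratio of the group means. The means were 82.7 ± 11.2 RPKM in knockdown (SD, n = 2) and 51.8 ± 18.03 RPKM in control (SD, n = 3), and the log2 difference was 0.73 (SE 0.35, limma adjusted p = 0.71). Without control replicate 3 it was 0.40.

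SNHG6 (ENSG00000245910, chromosome 8 from 66921684 to 66926398, minus strand), the host of SNORD87, had the highest mean RPKM of the 10 in both groups, though SNHG8 exceeded it in control replicate 2 and such levels depend on the exon length used. It stood at 101.3 and 109.8 RPKM in knockdown and at 90.1, 67.1 and 51.7 RPKM in control. Both knockdown libraries lay above the highest control, and the controls spread over 1.74-fold. The log2 difference was 0.63 (SE 0.26, limma adjusted p = 0.71), and 0.44 without control replicate 3. MCMDC2, a coding gene on the other strand, shares 29.3% of the SNHG6 exon length, and had 35 and 46 reads in knockdown against 22, 2 and 81 in control, where SNHG6 had 1174 and 2081 reads against 1032, 163 and 1265.

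GAS5 (ENSG00000234741, chromosome 1 from 173863900 to 173868882, minus strand), named for its accumulation in growth-arrested cells, was at 29.9 and 32.7 RPKM in knockdown and at 27.4, 27.7 and 18.2 RPKM in control. Control replicates 1 and 2 lay just under the knockdown libraries, and control replicate 3 well under both. The log2 difference was 0.37 (SE 0.23, limma adjusted p = 0.73) and 0.18 without control replicate 3. Its antisense neighbour GAS5-AS1, which shares 1.16% of the GAS5 exon length, had 6 and 13 reads in knockdown and 2, 0 and 8 in control.

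ZFAS1 (ENSG00000177410, chromosome 20 from 49278178 to 49295738, plus strand), the host of SNORD12, SNORD12B and SNORD12C, was at 5.42 and 9.48 RPKM in knockdown and at 3.79, 5.49 and 6.09 RPKM in control. The groups overlapped: knockdown replicate 1 lay below control replicates 2 and 3, and knockdown replicate 3 alone stood above all controls. The log2 difference of 0.47 (SE 0.31, limma adjusted p = 0.73) came to 0.10 with knockdown replicate 3 left out and 0.85 with knockdown replicate 1 left out. ZNFX1, the coding gene whose other strand ZFAS1 is read from, overlaps 11.1% of its exon length and was at 4.26 and 2.92 RPKM in knockdown against 3.43, 4.07 and 4.11 RPKM in control. Counting by strand is not stated, so reads in that overlap cannot be told apart.

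SNHG1 (ENSG00000255717, chromosome 11 from 62851988 to 62855914, minus strand), which carries 7 annotated snoRNA genes including SNORD22 and SNORD25 to SNORD28, did not follow the hosts above. It was at 21.2 and 25.9 RPKM in knockdown and at 24.1, 20.6 and 27.0 RPKM in control, and the groups overlapped throughout. The log2 difference was -0.02 (SE 0.18, 95% interval -0.48 to 0.44, limma adjusted p = 0.98). Control replicate 3, which held the lowest SNHG5, SNHG6, GAS5 and SNHG8 of the 5 libraries, held the highest SNHG1.

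Among the hosts of box H/ACA snoRNAs, SNHG7 (ENSG00000233016, chromosome 9 from 136721366 to 136728184, minus strand), the host of SNORA17A and SNORA17B, was at 17.3 and 21.3 RPKM in knockdown and at 15.3, 9.33 and 9.72 RPKM in control. The groups did not overlap, with control replicate 1 close to knockdown replicate 1. The means were 19.3 ± 2.81 RPKM in knockdown (SD, n = 2) and 11.5 ± 3.36 RPKM in control (SD, n = 3), a log2 difference of 0.75 (SE 0.26, 95% interval 0.10 to 1.41, limma adjusted p = 0.71). Leaving out 1 library moved this difference between 0.61 and 0.97. FAM69B, a coding gene on the other strand whose exons cover 25.2% of the SNHG7 exon length, was at 9.99 and 12.6 RPKM in knockdown and 9.75, 6.64 and 12.02 RPKM in control, and its reads cannot be told apart from those of SNHG7 in that overlap.

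EPB41L4A-AS1 (ENSG00000224032, chromosome 5 from 112160526 to 112164276, plus strand), the host of SNORA13, was at 3.02 and 4.68 RPKM in knockdown and at 2.35, 1.69 and 2.53 RPKM in control. The groups did not overlap, but control replicate 2 rests on 11 reads, for which counting error alone allows 0.843 to 3.02 RPKM (95% exact Poisson interval). The log2 difference was 0.68 (SE 0.26, 95% interval 0.02 to 1.35, limma adjusted p = 0.71), and 0.40 without knockdown replicate 3. The coding gene EPB41L4A on the other strand covers 49.6% of its exon length with exons of its own, but had 1 and 4 reads in knockdown and 0, 0 and 3 in control.

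SNHG8 (ENSG00000269893, chromosome 4 from 118278709 to 118279823, plus strand), the host of SNORA24, was at 76.0 and 89.96 RPKM in knockdown and at 72.2, 88.4 and 33.8 RPKM in control. Control replicate 2 lay between the knockdown libraries, and control replicate 3 was 2.62-fold below control replicate 2. The log2 difference of 0.46 (SE 0.43, limma adjusted p = 0.79) moved between 0.05 (control replicate 3 left out) and 0.74 (control replicate 2 left out).

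SNHG15 (ENSG00000232956, chromosome 7 from 44983023 to 44986961, minus strand), the host of SNORA9, was at 4.34 and 6.48 RPKM in knockdown and at 7.56, 7.32 and 6.42 RPKM in control. It was the host with the lowest difference, and the groups overlapped because knockdown replicate 3 lay just above control replicate 3. The means were 5.41 ± 1.51 RPKM in knockdown (SD, n = 2) and 7.10 ± 0.599 RPKM in control (SD, n = 3), a log2 difference of -0.38 (SE 0.21, limma adjusted p = 0.72). Leaving out knockdown replicate 1 gave -0.12, and leaving out knockdown replicate 3 gave -0.65.

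SNHG12 (ENSG00000197989, chromosome 1 from 28578538 to 28583132, minus strand) hosts both kinds, with SNORD99 of the box C/D class and SNORA16A, SNORA44 and SNORA61 of the H/ACA class. It was at 2.29 and 3.10 RPKM in knockdown and at 3.22, 1.80 and 3.34 RPKM in control, with the groups overlapping. Control replicate 2 gave 15 reads here, which allow 1.01 to 2.98 RPKM. The log2 difference was -0.01 (SE 0.30, 95% interval -0.76 to 0.74, limma adjusted p = 0.99), an interval that holds the differences of SNHG5, SNHG6 and EPB41L4A-AS1.

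**Figure D2:**
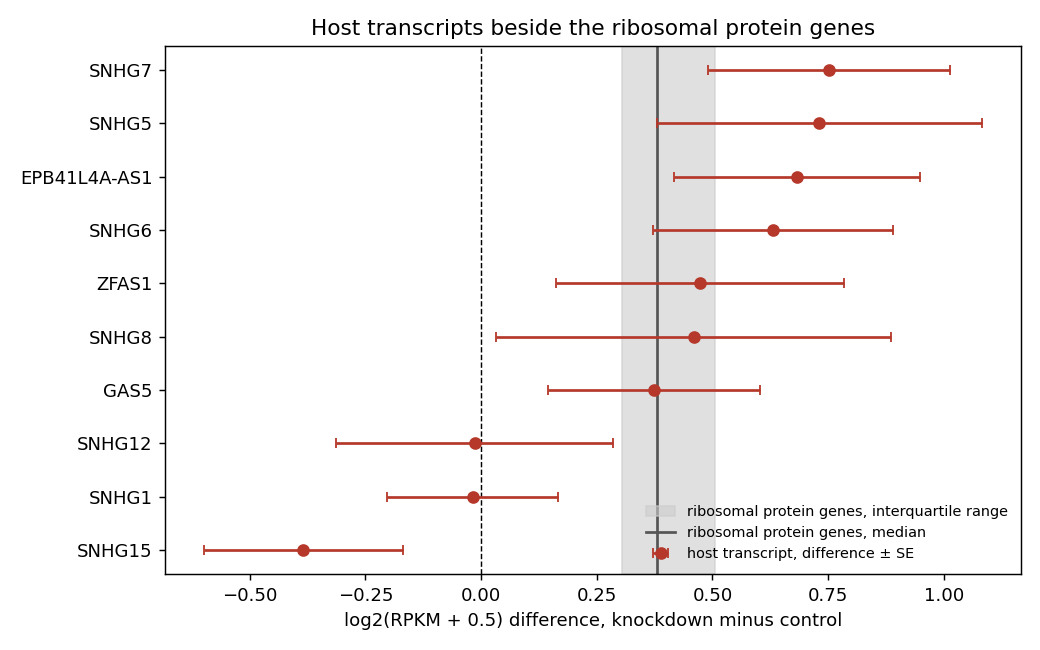
Log2(RPKM + 0.5) difference, knockdown minus control, of each host transcript with its SE (2 knockdown and 3 control libraries), beside the median (line) and interquartile range (grey band) of 80 ribosomal protein genes. SNHG7, SNHG5, EPB41L4A-AS1 and SNHG6 lie above the band, ZFAS1, SNHG8 and GAS5 within it, and SNHG12, SNHG1 and SNHG15 below it.

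Levels set between hosts depend on the exon length used. The RPKM values divide by all annotated exon bases of a gene, which include transcripts that retain introns. GAS5 has 3631 such bases while its annotated transcripts have a median length of 688 bases, and SNHG1 has 3756 against 748. SNHG8 has 923 against 470. In knockdown the 5 highest mean levels were those of SNHG6, SNHG8, SNHG5, GAS5 and SNHG1, at 105.5, 83.0, 82.7, 31.3 and 23.6 RPKM. In control the order by mean RPKM was SNHG6, SNHG8, SNHG5, GAS5, SNHG1, SNHG7, SNHG15, ZFAS1, SNHG12 and EPB41L4A-AS1. There SNHG6, SNHG8 and SNHG5 were at 69.6 ± 19.3, 64.8 ± 28.1 and 51.8 ± 18.03 RPKM (SD, n = 3), and GAS5 and SNHG1 at 24.4 ± 5.41 and 23.9 ± 3.21 RPKM. These SDs are between libraries and do not compare hosts within a library. SNHG6 exceeded SNHG5 in every control, at 90.1, 67.1 and 51.7 RPKM against 62.3, 62.2 and 31.03 RPKM. SNHG8 also exceeded SNHG5 in every control. The order of SNHG6 and SNHG8 changed between controls, as did that of GAS5 and SNHG1. Differences between hosts were not tested.

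By median, the hosts and the ribosomal protein genes were both highest in knockdown replicate 3 and lowest in control replicates 2 and 3. The order within the other libraries differed. The hosts' median deviation from each gene's midpoint of the group means was 0.09 and 0.36 on the log2 scale in knockdown replicates 1 and 3, and 0.03, -0.16 and -0.36 in control replicates 1, 2 and 3. For 80 ribosomal protein genes it was 0.03 and 0.35 in knockdown and 0.09, -0.36 and -0.33 in control. Knockdown replicate 3 was the highest library for 7 of the 10 hosts and for 66 of the 80 ribosomal protein genes. Control replicate 3 was the lowest for 4 hosts and 36 ribosomal protein genes, and control replicate 2 the lowest for 4 hosts and 41 ribosomal protein genes. Control replicate 2 was also the highest library for 10 ribosomal protein genes, and for 0 hosts, so the ribosomal protein genes were split there. Control replicate 1 lay close to knockdown replicate 1 in both groups, above it for ribosomal proteins and below it for hosts. All genes tested had their highest median in control replicate 3, at 0.12, where hosts and ribosomal proteins were low.

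**Figure D3:**
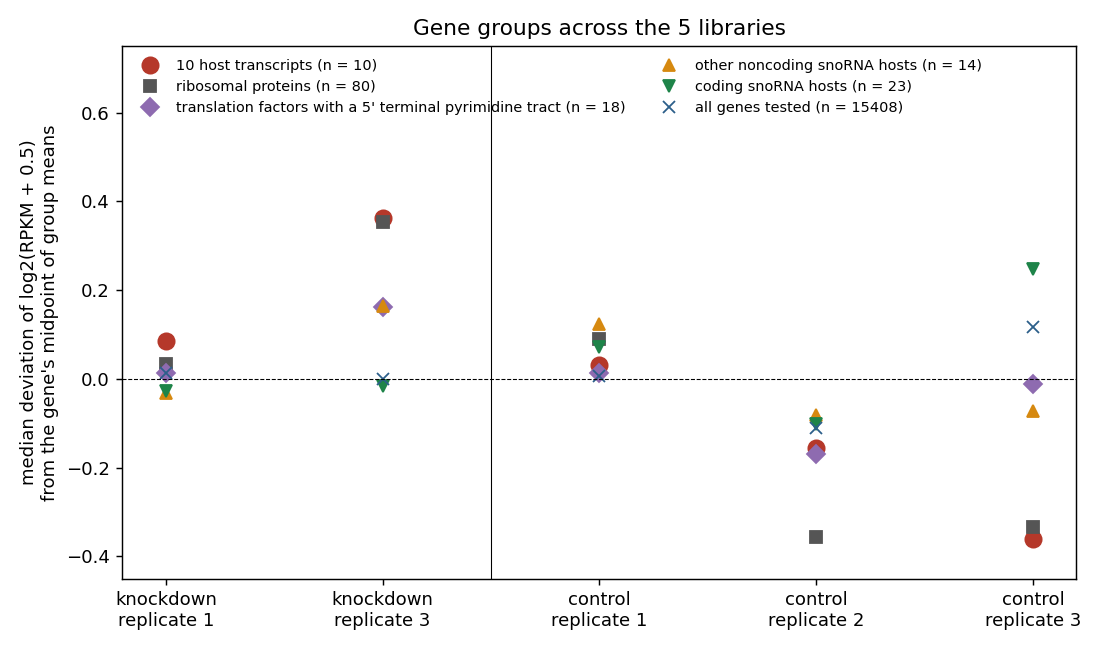
Median deviation of log2(RPKM + 0.5) from each gene's midpoint of the group means, in the 2 knockdown and 3 control libraries, for 6 sets of genes. The hosts and the ribosomal proteins are high together in knockdown replicate 3 and low together in control replicate 3, where coding snoRNA hosts and all genes are high.

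As shares of all assigned reads, the 10 hosts took 0.0717% and 0.0856% in knockdown and 0.0668%, 0.0611% and 0.0452% in control. The 80 ribosomal protein genes took 6.81% and 8.43% in knockdown and 7.02%, 5.56% and 5.06% in control. The host shares did not overlap between the groups, while control replicate 1 exceeded knockdown replicate 1 for ribosomal proteins.

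Ribosomal protein genes had a log2 difference above 0 for 76 of 80, with a median of 0.38, and limma called 0 of 80 after adjustment. Unadjusted limma p-values were under 0.05 for 2 of the 80, both of them higher, beside 3.8% of all genes higher at that threshold. In 14 of the 80 (17.5%) both knockdown libraries lay above all controls, beside 14.3% of all genes. The interquartile range ran from 0.31 to 0.51. RPL13A, a subunit gene that itself hosts snoRNAs, was highest at 0.94 (SE 0.40) and RPLP2, a protein of the ribosomal stalk, was at 0.86 (SE 0.35). RPS10 and RPL26 were lowest at -0.59 (SE 0.39) and -0.47 (SE 0.55). The RPS10 value rests on few reads, 12 and 25 in knockdown and 22, 10 and 32 in control. Ribosomal protein genes have many processed pseudogenes that can share their reads, so single values among them are uncertain.

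Set against that spread, 4 hosts lay above the interquartile range of ribosomal protein genes, 3 within it and 3 below it. SNHG7 and SNHG5 exceeded 96.2% and 95% of ribosomal protein genes, and SNHG15 exceeded 2.5% of them. The host median minus the ribosomal protein median was 0.09, with a spread between libraries of 0.12 (SD), and leaving out control replicate 1, 2 or 3 gave -0.0074, 0.19 or -0.03. With each library centred on its ribosomal protein genes, the host differences had a median of -0.0006 and the ribosomal protein differences one of -0.09, so host minus ribosomal protein stayed at 0.09. That centring shifts all genes alike: the median of all genes became -0.47, 5 of 10 hosts were above 0, and GAS5 and SNHG8 stood at -0.09 and -0.0079. By distance between centred profiles over the 5 libraries (Euclidean, log2 scale), SNHG7 and SNHG6 were nearest to the median ribosomal protein profile at 0.435 and 0.440, followed by GAS5 at 0.483 and EPB41L4A-AS1 at 0.524. SNHG8 and SNHG15 were farthest, at 1.01 and 0.914.

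Genes outside the 10 hosts with the most similar profile were sought among 4343 genes with a mean of at least 10 RPKM. The nearest to the hosts' median profile over the 5 libraries were USF2 (distance 0.112), CD151 (0.127) and LCMT1 (0.131), and 5 of the nearest 50 were ribosomal protein genes, of which 76 were among the candidates. USF2, a transcription factor, was at 24.1 and 29.7 RPKM in knockdown and at 22.0, 20.3 and 18.2 RPKM in control. Nothing is drawn from these names.

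**Figure D4:**
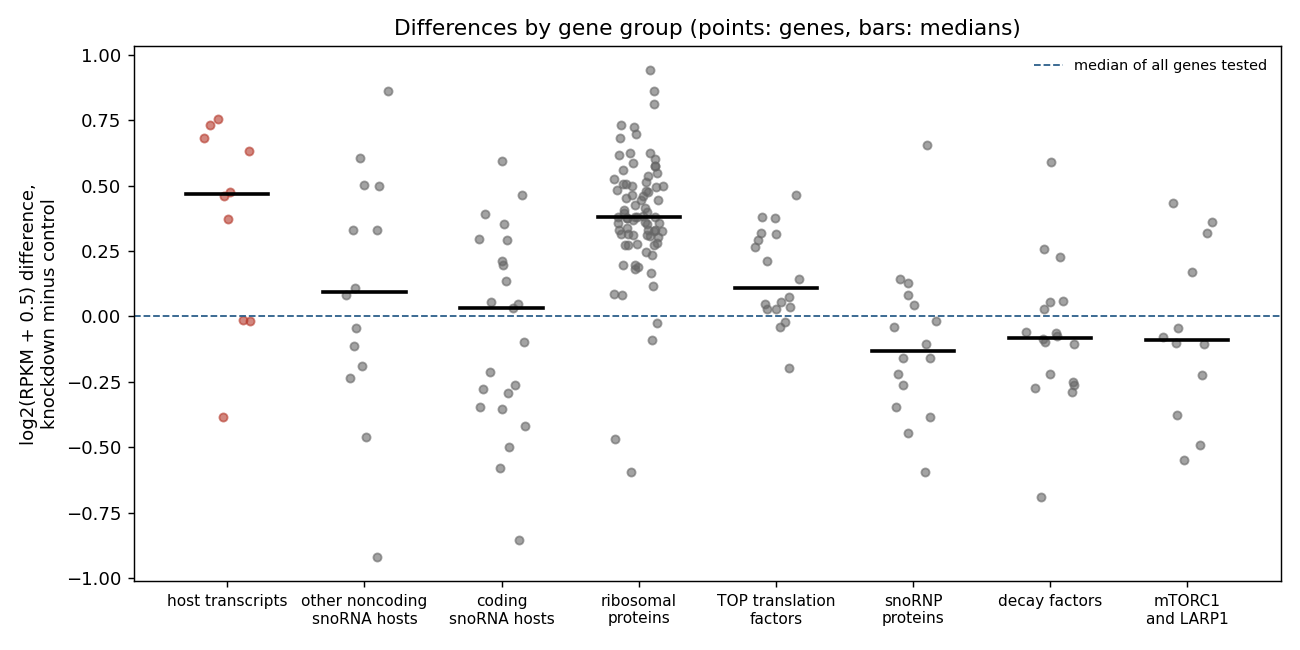
Log2(RPKM + 0.5) differences, knockdown minus control, of single genes (points) with list medians (black bars) and the median of all genes tested (dashed line). The hosts and the ribosomal proteins have medians of 0.47 and 0.38, and the other 6 lists lie between -0.13 and 0.11.

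Of 17 other snoRNA hosts listed as noncoding, 14 passed the filter, 8 of them above 0 and 6 below, with a median of 0.09. Of these 14, limma called 0, with 0 at an unadjusted p under 0.05. In 1 of the 14 (7.14%) both knockdown libraries lay above all controls, beside 14.3% of all genes. That gene was C6orf48, later named SNHG32, which GENCODE 29 gives as protein coding. Without it, 7 of 13 were above 0, with a median of 0.08, and 0 lay above all controls. C6orf48 was at 33.4 and 35.1 RPKM in knockdown and at 27.6, 11.1 and 21.0 RPKM in control, a log2 difference of 0.86 (SE 0.38), and SNHG19 differed by 0.60 (SE 0.32). At the other end, SNHG4 differed by -0.46 (SE 0.28) and SNHG25 by -0.92 (SE 1.31), with SNHG25 at 4.26 and 2.37 RPKM in knockdown and at 6.27, 35.1 and 0.917 RPKM in control. SNHG14, SNHG18 and SNHG20 did not pass the filter.

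Coding snoRNA hosts, whose mRNAs also carry snoRNAs in introns, were above 0 for 12 of 23, with a median of 0.03, and limma called 0, with 1 (CNOT1, lower) at an unadjusted p under 0.05. PPAN, a ribosome assembly factor, and TPT1, an abundant mRNA with a TOP tract, differed by 0.59 (SE 0.39) and 0.46 (SE 0.25). PPAN had only 3 reads in control replicate 2. CNOT1, the scaffold of the deadenylase complex, differed by -0.86 (SE 0.28) and WDR43, a ribosome assembly factor, by -0.58 (SE 0.23). Both knockdown libraries lay below all controls for 9 of the 23, beside 13.6% of all genes. They lay above all controls for 3 of the 23 (13.0%), beside 14.3% of all genes. Translation factors and related genes with a TOP tract were above 0 for 15 of 18, with a median of 0.11. TPT1 and NAP1L1 (0.38, SE 0.25) were highest, and EIF3E and EIF3L lowest at -0.04 (SE 0.22) and -0.20 (SE 0.15). For each of these lists the difference from the 10 hosts was not tested.

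Proteins that act with snoRNAs and on host transcripts were mostly at or below 0. Of 16 genes for snoRNP core and assembly proteins, 5 were above 0, with a median of -0.13. limma called 0, with FBL higher and NOLC1 lower at an unadjusted p under 0.05. FBL, the methyltransferase of box C/D particles, was at 369.0 and 426.1 RPKM in knockdown and at 311.5, 247.9 and 205.7 RPKM in control, a log2 difference of 0.66 (SE 0.24). FBL followed the hosts' order of libraries, with control replicate 3 the lowest. NOLC1, a chaperone of these particles, was at 27.8 and 24.0 RPKM in knockdown and at 35.7, 35.5 and 47.7 RPKM in control, a difference of -0.59 (SE 0.19). ZNHIT3 and NUFIP1, both assembly factors, differed by 0.14 (SE 0.21) and -0.44 (SE 0.25).

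Nonsense-mediated decay factors were above 0 for 6 of 18, with a median of -0.08. limma called 0, and 0 were under an unadjusted p of 0.05. SMG1, the kinase of UPF1, was at 3.48 and 2.12 RPKM in knockdown and at 3.65, 6.04 and 4.71 RPKM in control, a log2 difference of -0.69 (SE 0.29), and SMG6, an endonuclease, differed by -0.29 (SE 0.23). UPF3B and MAGOH, which join decay to exon junctions, were highest at 0.59 (SE 0.28) and 0.26 (SE 0.29). Of 12 genes of mTORC1 and LARP1, which control RNAs with a TOP tract, 4 were above 0, with a median of -0.09. limma called 0, with MLST8 higher and RPTOR lower at an unadjusted p under 0.05. MLST8 and EIF4EBP1 differed by 0.43 (SE 0.14) and 0.36 (SE 0.33), and RPTOR and MTOR by -0.55 (SE 0.19) and -0.49 (SE 0.27). Across all 15408 genes differences correlated with exon length at a Spearman rho of -0.23 and with GC at 0.28, as a description of genes that are not independent replicates, and with both trends removed from each library the hosts' median was 0.42.

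The snoRNAs inside the hosts gave almost no values. GENCODE 29 places 24 snoRNA gene IDs on the same strand within the 10 hosts. These are 7 in SNHG1, 5 in SNHG12, 4 in SNHG7, 3 in ZFAS1, 1 in each of SNHG5, SNHG6, SNHG8, SNHG15 and EPB41L4A-AS1, and 0 in GAS5. Some IDs share nearly the same bases in SNHG7 and SNHG12 but count separately: SNORA17B and SNORA16A have repeated IDs, and RF00560 lies within SNORA17A. The counts describe this annotation only, and the 0 for GAS5 does not mean that it hosts no snoRNA. The 19 IDs that lie fully within annotated host exons, as retained introns make possible, had 0 reads in all 5 libraries. Of the other 5, 4 had 64 reads in all. SNORD12B in ZFAS1 had 6 and 5 reads in knockdown and 11, 1 and 9 in control, and SNORD99 in SNHG12 had 2 and 8 reads in knockdown and 3, 7 and 2 in control. SNORA13 in EPB41L4A-AS1 and SNORD12C in ZFAS1 had 6 and 4 reads over the 5 libraries. Host and snoRNA levels therefore could not be set side by side.

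**Figure D5:**
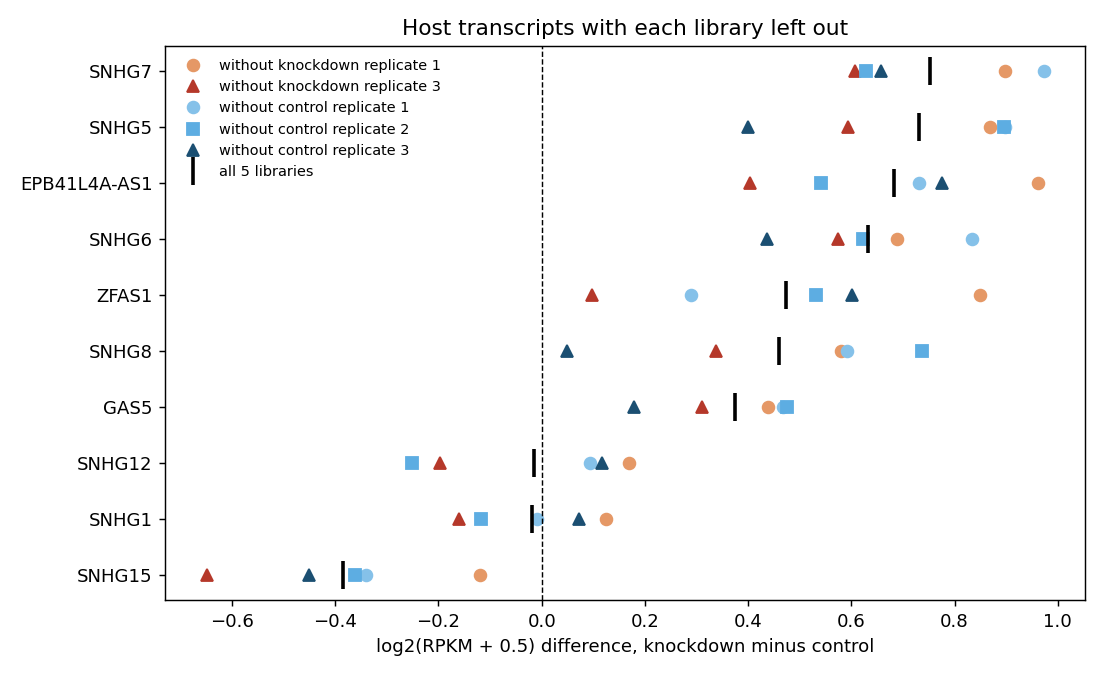
Log2(RPKM + 0.5) difference, knockdown minus control, of each host with all 5 libraries (black mark) and with each library left out. Without control replicate 3 the differences of SNHG5, SNHG6, SNHG8 and GAS5 are smallest, and without knockdown replicate 3 those of ZFAS1 and EPB41L4A-AS1, while SNHG1 and SNHG12 fall on both sides of 0.

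Single libraries set the size of most host differences. The median of the 10 was 0.29 without control replicate 3 and 0.63 without knockdown replicate 1, and that of the ribosomal proteins was 0.23 without knockdown replicate 3. SNHG5, SNHG6, SNHG7, ZFAS1 and EPB41L4A-AS1 stayed above 0, and SNHG15 below 0, in all 14 alternatives run. GAS5 and SNHG8 stayed above 0 in 13 of 14, with the exception of centring on ribosomal proteins. Control replicate 3 is also the deepest library, with the lowest mitochondrial share, and the part of depth in these values was not tested.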

How the data were processed

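The authors deposited 1 table of RPKM values, 1 per gene and library, and the labels' description field and the table's name give the unit. HISAT2 and GRCh38 are named in the submitters' processing notes; for the read counter, annotation, strand setting and filters, the entry is not given in the sources used here. GENCODE 29 held all 58676 gene IDs, and RPKM times summed exon length gave whole reads for 100% of values above 0 in 5 libraries (tolerance 0.002 of a read) and for 0.42% in knockdown replicate 2, which was left out. No gene had an equal value above 0 in any pair of the 5.

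limma 3.58.1 (R 4.3.3; lmFit, eBayes with a mean-variance trend) was fitted without covariates on log2(RPKM + 0.5) of the 5 libraries over the 15408 genes that reached 0.5 RPKM in 3 libraries, two-sided, with Benjamini-Hochberg adjustment over all genes and a threshold of 0.05. The fit was tested on simulated data. Simulated libraries of a group differed only by depth and random draw, so the outcome says little about the spread seen here. The host genes and lists were chosen with earlier results of these data known, and lists get counts and medians with no test. Named genes were the 10 hosts, up to 2 genes at each end of every list, genes that overlap a host, and the 3 nearest profiles. Alternatives were pseudocounts of 0.1 and 1, no filter and a filter at 1 RPKM, median-of-ratios scaling, centring on ribosomal proteins, removal of length and GC trends (loess), voom on the recovered reads, the replicate number as a block, and each library left out. Counts of hosts above 0 and above all controls were added to these after the values were seen. Poisson intervals cover counting error only. Start sequences are from GENCODE transcripts and the microRNA from RefSeq.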

Additional observations from a re-analysis of the deposited data

How the results depend on the processing

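limma called 0 genes higher and 0 lower in every alternative run except the replicate block; as reported, unadjusted p-values were under 0.05 for 585 genes on the higher side and 392 on the lower, and for 749 and 880 with voom, which called 0. Host transcripts called after adjustment numbered 0 in each of the 14 alternatives. With the replicate number as a block (replicate block, 1 residual degree of freedom in effect from numbers 1 and 3) 33 genes were called higher and 7 lower, none of them a host; the deviations of same-numbered libraries had a correlation of -0.077 across genes, so the numbers are not shown to pair the libraries. Centred on ribosomal protein genes, the host median was -0.00059, the ribosomal protein median -0.087, GAS5 -0.093 and SNHG8 -0.0079, by the construction of that scaling. SNHG12 was 0.00067 with median-of-ratios scaling and SNHG1 0.0031 with length and GC trends removed. Leaving out 1 library gave a host median of 0.29 to 0.63 and a ribosomal protein median of 0.23 to 0.54. Host minus ribosomal protein median then ran from -0.034 without control replicate 3 to 0.19, and was -0.0074 without control replicate 1. SNHG1 ran from -0.16 to 0.12 and SNHG12 from -0.25 to 0.17, and 7 to 9 hosts were above 0. Hosts above all controls numbered 5 to 7, but the share over all genes was not taken for these settings. Groups separate more easily with fewer libraries, so the 14.3% of all genes found with 5 libraries does not apply there. SNHG8 was 0.05 without control replicate 3, and ZFAS1 was 0.10 without knockdown replicate 3. The lowest-count hosts, SNHG12 and EPB41L4A-AS1, are limited by 15 and 11 reads in control replicate 2.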

Other observations

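The 0 values of snoRNAs inside host exons held for the whole table. Of 148 snoRNA gene IDs that lie fully within exons of another gene on the same strand, 0 had a read in any of the 5 libraries. Of 789 snoRNA gene IDs that no exon of another gene overlaps, 194 (24.6%) had at least 1 read, 2251 reads in all. How reads in such overlaps were assigned was not tested.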
